A study of Mus musculus with 28 samples.

Results

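The Oas and Ifit genes are antiviral effectors of the interferon response, and 10 of them were followed here in the stomach epithelium of villin-PPARD transgenic mice and wild-type mice. The 10 are the rows of the deposited count table that carry the symbols Oas1a, Oas1g, Oas2, Oas3, Oasl1, Oasl2, Ifit1, Ifit2, Ifit3 and Ifit1bl1, out of 49492 rows. All 10 passed the filter on low counts that left 15812 genes for testing. The genes were chosen by their levels in these same libraries, above all their differences between transgenic and wild-type mice, with earlier results known. Those differences are therefore given as a description, with no p-value for any gene, and counts of calls stand beside the share of all genes called.

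Cells recognise viral double-stranded RNA and answer with type I and type III interferons, whose receptors activate transcription factors such as Stat2 and Irf9. These bind a short DNA element, the interferon-stimulated response element, in front of genes such as these 10. The OAS proteins are enzymes that, once bound to double-stranded RNA, make 2′-5′-linked oligoadenylates, a signal that leads to the breakdown of RNA in the cell. The IFIT proteins are built of tetratricopeptide repeats and bind foreign RNA, for example RNA whose cap lacks ribose methylation. The same genes are expressed at low levels in many uninfected epithelia.

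RNA came from epithelium of the gastric corpus, where the stomach makes its acid, and the cells had been taken off by manual scraping. There were 28 libraries, 1 per mouse. Mice labelled WT, wild-type littermates of the transgenic line, numbered 5, 4 and 5 at ages of 10, 25 and 55 weeks. Mice labelled villin-PPARD numbered 5, 4 and 5 at the same ages. They carry the lipid-activated nuclear receptor PPARD, and the name of the line refers to villin, whose promoter is usually chosen for expression in gut lining cells. The labels do not say which species the transgene sequence comes from, whether 1 founder line was used, or what other alleles or agents the mice carried, and no sex or strain is given here. Each p-value below sets a difference against the variation between mice. For single genes the main fit estimated that variation over all groups together.

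The count totals ranged from 10982888 to 30891108 per library. Values are CPM, the counts of a gene scaled to a common library total, after scaling by trimmed mean of M values (TMM). Ppard itself was at 65.7 to 83.6 CPM in wild-type and 101 to 125 CPM in transgenic libraries at 10 weeks. The genotypes overlapped for Ppard at 25 and 55 weeks, so at those ages this gene did not separate the labels. Scraped cells are a mixture, and in such bulk samples fewer cells of a type and less RNA per cell cannot be told apart. Markers of corpus cell types moved with genotype: the summed level of 4 parietal cell genes was 14157 to 16538 CPM in wild-type and 8353 to 10481 CPM in transgenic libraries at 10 weeks. At 55 weeks the same sum was 5425 to 9460 CPM against 144 to 439 CPM.

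The promoters of these genes are shown first, because the interferon-stimulated response element can be read in several of them. Windows from 250 bases before to 50 after each annotated start came from RefSeq on GRCm38.p6, and 9 of the 10 genes had one. Both strands were searched for the core of the interferon-stimulated response element, taken as 2 copies of GAAA with any 2 bases between them, which reads as 2 copies of TTTC on the other strand. Each stretch is printed 5′ to 3′ on the gene's own strand, with matches in capitals.
Oas1a, chr5:120907526-120907570, minus strand: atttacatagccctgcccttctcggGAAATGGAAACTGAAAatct
Oas1g, chr5:120887614-120887656, minus strand: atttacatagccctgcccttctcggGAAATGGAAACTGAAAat
Oas3, chr5:120777700-120777759, minus strand: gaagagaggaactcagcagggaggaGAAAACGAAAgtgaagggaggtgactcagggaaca
Ifit1, chr19:34640760-34640838, plus strand: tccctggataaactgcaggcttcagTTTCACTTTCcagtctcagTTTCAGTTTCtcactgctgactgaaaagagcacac
Ifit3, chr19:34583348-34583441, plus strand: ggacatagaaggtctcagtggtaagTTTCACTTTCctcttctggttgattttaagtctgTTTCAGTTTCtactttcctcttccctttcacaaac
Ifit1bl1, chr19:34602038-34602097, minus strand: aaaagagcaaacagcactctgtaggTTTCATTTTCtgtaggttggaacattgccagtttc

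A match was present in 6 of the 9 genes with a window (66.7%; Ifit2 and Ifit1bl1 have a window at each of 2 starts), against 1079 of 27025 genes in the table (3.99%). Oas1a and Oas1g carried the same run of 2 overlapping matches just upstream of the start, and Ifit1 and Ifit3 each carried 2 separate ones. Oasl1, Oasl2 and Ifit2 had none in these windows, which says only that the letters are not there. Among comparison lists, the letters were found in 6 of 14 other interferon-induced effectors, 5 of 5 guanylate-binding proteins, 2 of 8 interferon transcription factors and 0 of 8 interferon receptors and kinases with a window. They were also in 4 of 14 nucleic acid sensors and adaptors and 3 of 5 other Oas and Ifit family genes with a window. A match is a stretch of letters and was not measured as a bound site.

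**Figure D1:**
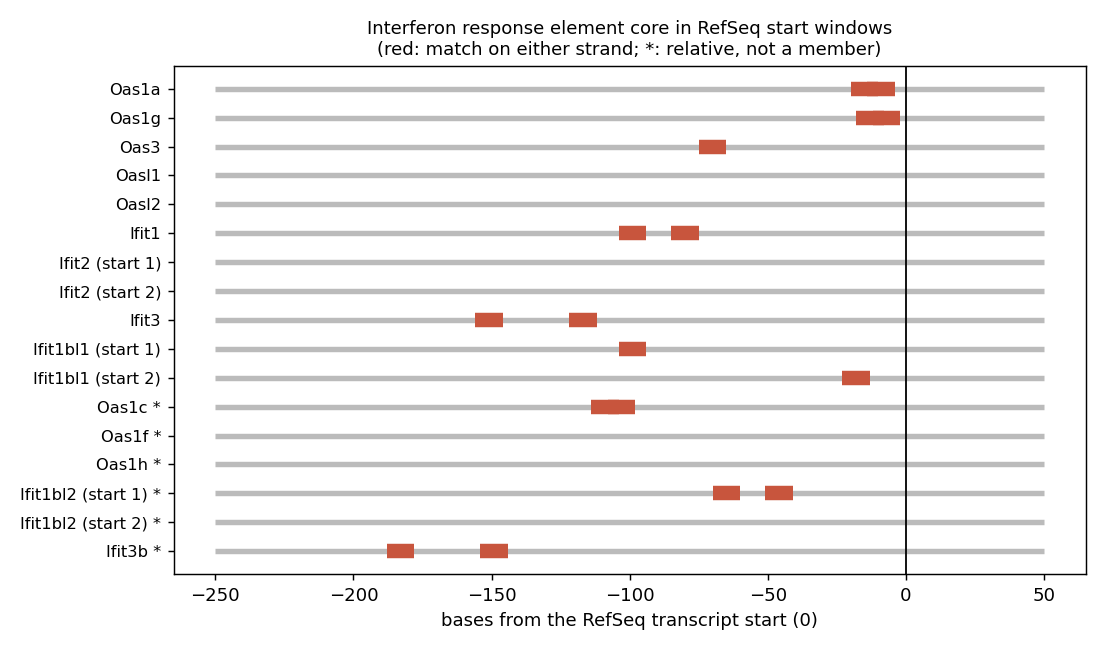
Positions of 2 copies of GAAA spaced by 2 bases, or of the reverse complement, relative to the annotated start, in bases, for each gene and window with a RefSeq promoter entry (asterisks mark family genes that are not among the 10). The matches of Oas1a and Oas1g lie nearest the start (at -20 to -12), those of Ifit3 are the farthest among the 10 (-156 and -122), and the windows of Oasl1, Oasl2 and Ifit2 are empty.

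By position on GRCm38 (GENCODE M21) the genes lie in 3 clusters. Oas1a (ENSMUSG00000052776) spans 120896256 to 120907521 on chromosome 5, followed by Oas1g (ENSMUSG00000066861), Oas3 (ENSMUSG00000032661) and Oas2 (ENSMUSG00000032690) down to 120730333. Oasl2 (ENSMUSG00000029561) and Oasl1 (ENSMUSG00000041827) lie side by side on chromosome 5 from 114896936 to 114937915. Ifit2 (ENSMUSG00000045932), Ifit3 (ENSMUSG00000074896), Ifit1bl1 (ENSMUSG00000079339) and Ifit1 (ENSMUSG00000034459) lie on chromosome 19 between 34550694 and 34650009. All 10 are annotated as protein-coding. Counts were taken over exons of near-identical relatives: 47.6% of the 75-base windows of the Oas1a transcript also occur in Oas1g, and 41.1% of those of Ifit3 occur in Ifit3b. Whether reads from these stretches were split between the genes of a pair or left out of the counts was not examined. Ifit1 shared 5.19% of its windows and Ifit1bl1 1.98% with Ifit1bl2, whereas Oas2, Oas3, Oasl1, Oasl2 and Ifit2 shared none with the family genes compared. The exons of Oasl1 overlap an antisense gene over 38 bases, and the kit does not mark the strand.

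Some libraries stood apart before any comparison. Wild-type replicate 1 of 10 weeks had the highest level of its group for all 10 genes, and its mean log2 level over the 10, relative to the wild-type mean, was 1.18 against -0.36 to -0.05 in the other 4 mice. Wild-type replicates 2 and 3 of 10 weeks were the closest pair among mice of a group (chi-square per degree of freedom 3.95, next lowest 13.8) and were counted as 2 mice. Among transgenic mice of 25 weeks, replicate 3 had the lowest mean level (3.74 against 4.09 to 4.67). Headers of the count table give a library group as well: 10-week replicates 1 to 3 and the 25-week libraries fall in the first, and 10-week replicates 4 and 5 and all 55-week libraries in the second, while wild-type replicate 3 of 25 weeks is tagged as a replacement. A comparison of 55 with 25 weeks therefore cannot be told apart from the library group.

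In wild-type corpus epithelium the family was expressed at very unequal levels. Per kilobase of exon, Oasl1 was the highest of the 10 at each age (54.3, 49.7 and 69.2 CPM per kilobase at 10, 25 and 55 weeks) and Ifit2 the lowest (0.144, 0.117 and 0.154). The length used is that of all annotated exons of a gene together. Oasl1 is an OAS-like protein without synthetase activity that represses translation of Irf7. Its wild-type libraries held 190.4, 105, 103, 144 and 165 CPM at 10 weeks, 139, 135, 131 and 113 CPM at 25 weeks, and 213, 191, 182, 176 and 141 CPM at 55 weeks, so 10 weeks overlapped with both later ages, and the 25-week libraries lay just below those of 55 weeks. Ifit1, the cap-sensing IFIT, was between 1.46 and 9.78 CPM at 10 weeks, 0.306 and 3.93 CPM at 25 weeks, and 1.18 and 3.15 CPM at 55 weeks. Ifit2 and Ifit3 stayed below 1 CPM in every wild-type library, at 0.122 to 0.909 and 0.122 to 0.995 CPM. At that depth a difference between single wild-type libraries rests on few reads.

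Age did not move the family past the test in wild-type mice. The quasi-likelihood test of edgeR, adjusted by Benjamini-Hochberg, called 0 of the 10 genes between 10 and 25 weeks and 0.0126% of all genes. At an unadjusted p under 0.05 it named 2, Oas2 and Oas3, beside 3.76% of all genes, and DESeq2 called 0. Between 10 and 55 weeks it called 0 of the 10, beside 12.7% of all genes (1 at an unadjusted p under 0.05, beside 28.6%, and DESeq2 0). Between 25 and 55 weeks it called 0, beside 1.10% of all genes (3 at an unadjusted p under 0.05, beside 14.9%). DESeq2 called 1 there, Oas2, with a log2 difference of 0.89. Without wild-type replicate 1 of 10 weeks, 2 genes were higher at 55 than at 10 weeks, Oas1g (log2 0.40) and Oasl1 (log2 0.48). With only the second library group at 10 weeks, Oas2 was higher at 55 weeks (log2 1.34). The 10-week wild-type levels of Oas2 split by library group, at 60.8, 41.1 and 42.2 CPM in the first and 15.01 and 19.3 CPM in the second, and those of Oas3 did so too (12.2, 4.72 and 4.71 against 1.77 and 2.02 CPM).

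All 10 genes were higher in transgenic than in wild-type epithelium at 10, 25 and 55 weeks. The median log2 difference of the 10 was 4.47, 4.90 and 3.30 at these ages, where the median over all tested genes was -0.03, -0.01 and 0.03. Every transgenic library lay above every wild-type library of its age for each gene, except Ifit2 at 25 weeks. All 10 passed an adjusted p of 0.05 at each age, where 34.0%, 39.6% and 59.3% of all genes did so. The share of genes that were called higher was 17.9%, 21% and 31.7%, and the share with all transgenic libraries above was 14.5%, 14.9% and 23.9%. Nothing is read from these counts, since this contrast chose the genes. Wild-type replicate 1 and the library group moved the size at 10 weeks: the median log2 difference was 4.80 without that library, 4.07 within the first library group and 5.07 within the second.

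**Figure D2:**
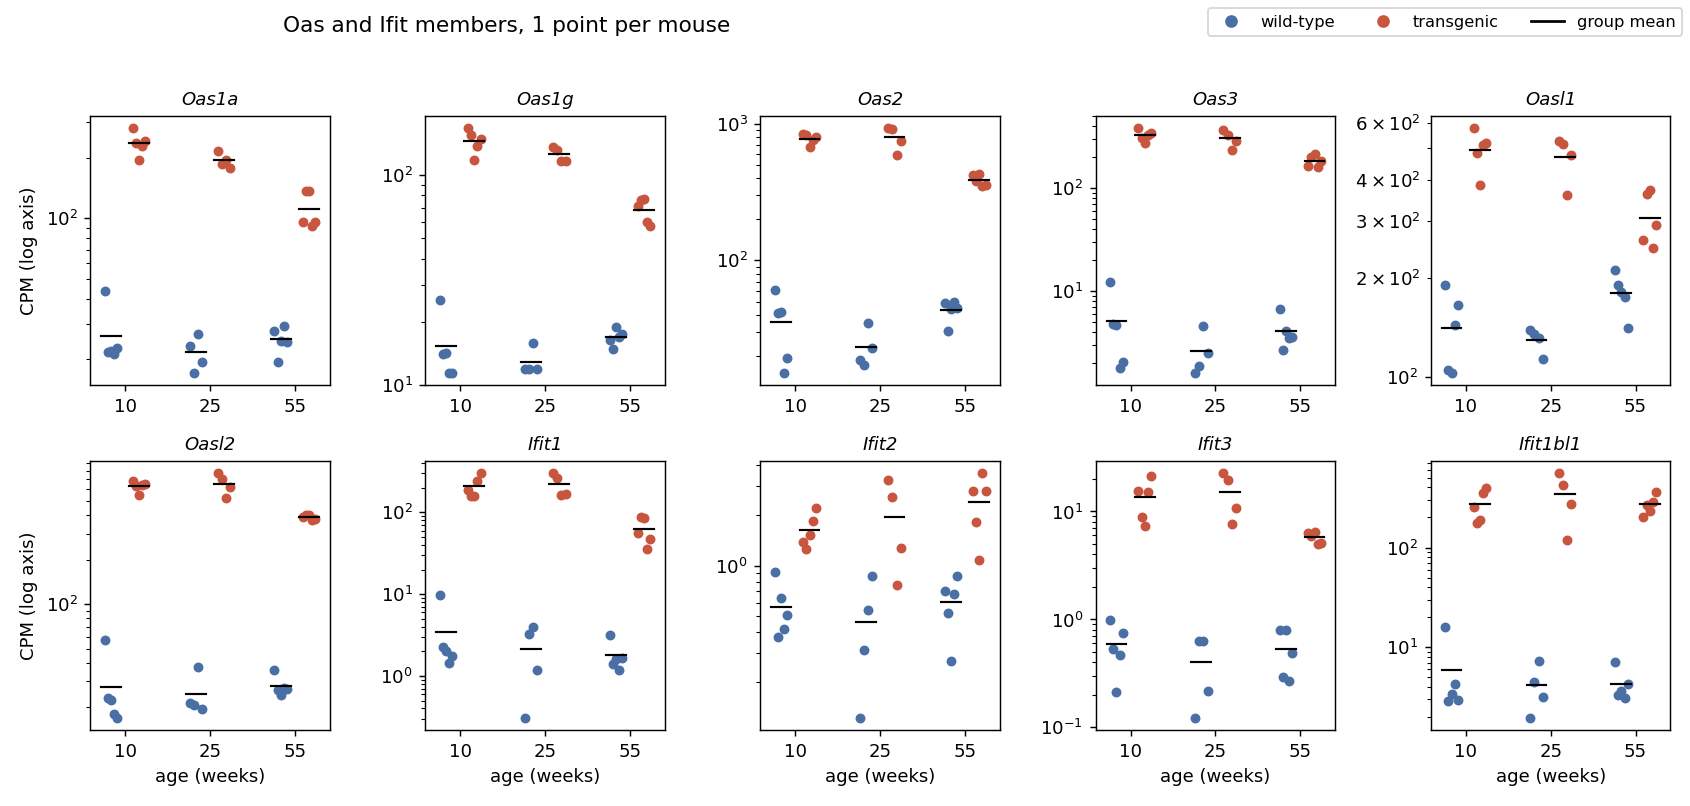
CPM of the 10 genes in each of the 28 libraries on a log axis, by genotype and age, with 1 point per mouse and bars at group means. Transgenic libraries lie above the wild-type libraries of the same age in each panel except for Ifit2 at 25 weeks, and the highest wild-type point at 10 weeks is replicate 1 in each panel.

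The synthetases make the oligoadenylates and are taken first. Oas2, an active synthetase with a duplicated catalytic unit, was at 840.3, 823, 672, 764 and 797 CPM in transgenic mice of 10 weeks, 928, 911, 595 and 749.7 CPM at 25 weeks, and 424, 384, 428, 353 and 356 CPM at 55 weeks. In wild-type mice it was at 15.01 to 60.8 CPM at 10 weeks, 18.6, 17.3, 35.001 and 22.7 CPM at 25 weeks, and 48.6, 30.5, 43.8, 49.98 and 45.0 CPM at 55 weeks. Each transgenic library of 55 weeks was above each wild-type library and below each younger transgenic library. The log2 differences between genotypes were 4.44 (SE 0.28), 5.08 (SE 0.33) and 3.16 (SE 0.27).

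Oas3, the synthetase with 3 units and a preference for long double-stranded RNA, was among the most widely separated of the 10 genes. Its transgenic libraries held 382, 306, 273, 324 and 339 CPM at 10 weeks, 366, 328, 234 and 284 CPM at 25 weeks, and 163, 202, 213, 160.3 and 182 CPM at 55 weeks. Wild-type libraries held 1.59 to 4.57 CPM of Oas3 at 25 weeks and 2.66 to 6.66 CPM at 55 weeks, so the lowest transgenic library lay far above the highest wild-type library. The log2 differences were 5.95 (SE 0.37), 6.79 (SE 0.44) and 5.47 (SE 0.37).

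Oas1a, a single-unit synthetase, was at 280.4, 237, 194, 229.6 and 242 CPM in transgenic mice of 10 weeks, 216, 187, 195 and 177 CPM at 25 weeks, and 96.2, 137, 137, 91.8 and 95.6 CPM at 55 weeks. Its wild-type libraries lay between 17.1 and 43.6 CPM over all ages. Transgenic libraries of 55 weeks were again intermediate, with no overlap with either side. Oas1g is a relative of Oas1a, and 44.6% of the 75-base windows of its transcript also occur in Oas1a. It had transgenic means of 145 (SD 18.5, n = 5), 125 (SD 9.75, n = 4) and 68.2 CPM (SD 9.03, n = 5) at the 3 ages. Its wild-type means were 15.3 (SD 5.84, n = 5), 12.9 (SD 1.97, n = 4) and 16.9 CPM (SD 1.51, n = 5). The log2 differences of Oas1g were 3.23 (SE 0.16), 3.27 (SE 0.18) and 2.01 (SE 0.16).

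The OAS-like genes are neighbours with unlike wild-type levels: at 10 weeks Oasl1 was at 54.3 and Oasl2 at 4.33 CPM per kilobase in wild-type mice, and at 190.0 and 98.8 in transgenic mice. The Oasl2 values rest on 6374 bases of annotated exons, where its longest transcript has 3123. Oasl1 was at 577, 485, 386, 511 and 518 CPM in transgenic mice of 10 weeks, 526, 516, 360.1 and 477 CPM at 25 weeks, and 261, 362, 373, 248 and 292 CPM at 55 weeks. At 55 weeks the nearest libraries of the 2 genotypes were 248 and 213 CPM, and the log2 difference was 0.77 (SE 0.15), after 1.81 (SE 0.16) at 10 weeks and 1.86 (SE 0.18) at 25 weeks. Oasl2, which has kept synthetase activity in mice, was at 683, 626, 551, 644 and 645 CPM in transgenic mice of 10 weeks, 771, 700.0, 525 and 618 CPM at 25 weeks, and 389.9, 401, 399.6, 374 and 378 CPM at 55 weeks. The transgenic mice of 55 weeks had a mean of 388 CPM of Oasl2 (SD 12.3, n = 5). Its wild-type means were 27.6 (SD 16.8, n = 5), 24.8 (SD 8.48, n = 4) and 28.1 CPM (SD 4.46, n = 5), and the log2 differences were 4.50 (SE 0.26), 4.71 (SE 0.29) and 3.78 (SE 0.25).

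Among the IFIT genes, Ifit1 was at 188, 160.3, 158, 240.4 and 299.9 CPM in transgenic mice of 10 weeks, 303, 265, 163 and 169 CPM at 25 weeks, and 56.1, 89.0, 84.4, 35.7 and 47.1 CPM at 55 weeks. The oldest transgenic mice lay between the wild-type and the younger transgenic mice, with no overlap. The log2 differences of Ifit1 were 5.85 (SE 0.49), 6.72 (SE 0.59) and 5.09 (SE 0.51). Ifit1bl1, an Ifit1-like gene, was at 254, 175, 189, 351 and 397 CPM in transgenic mice of 10 weeks, 558, 424, 120.3 and 271 CPM at 25 weeks, and 203, 269, 230.1, 283 and 364 CPM at 55 weeks. Its transgenic libraries overlapped between all 3 ages. In wild-type mice Ifit1bl1 was at 1.96 to 16.1 CPM over all ages, and the log2 differences between genotypes were 5.49 (SE 0.50), 6.33 (SE 0.59) and 5.95 (SE 0.52).

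Ifit3, a partner that binds and stabilises IFIT complexes, was at 15.3, 8.87, 7.31, 15.3 and 21.4 CPM in transgenic mice of 10 weeks, 22.7, 19.7, 7.72 and 10.8 CPM at 25 weeks, and 6.35, 5.87, 6.47, 4.99 and 5.12 CPM at 55 weeks. Each of these was above each wild-type library, and the log2 differences were 4.53 (SE 0.39), 5.28 (SE 0.47) and 3.45 (SE 0.41). Ifit2, another IFIT, remained scarce: transgenic libraries held 1.39, 1.26, 1.51, 1.84 and 2.20 CPM at 10 weeks, 3.25, 2.57, 0.763 and 1.27 CPM at 25 weeks, and 2.79, 1.82, 1.08, 3.58 and 2.80 CPM at 55 weeks. At 25 weeks transgenic replicate 3 (0.763 CPM) lay below the highest wild-type library (0.862 CPM). The log2 differences of Ifit2 were 1.496 (SE 0.40), 2.02 (SE 0.46) and 1.94 (SE 0.38). Within the 10-week libraries of each library group it was at 1.07 in the first and 2.13 in the second.

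**Figure D3:**
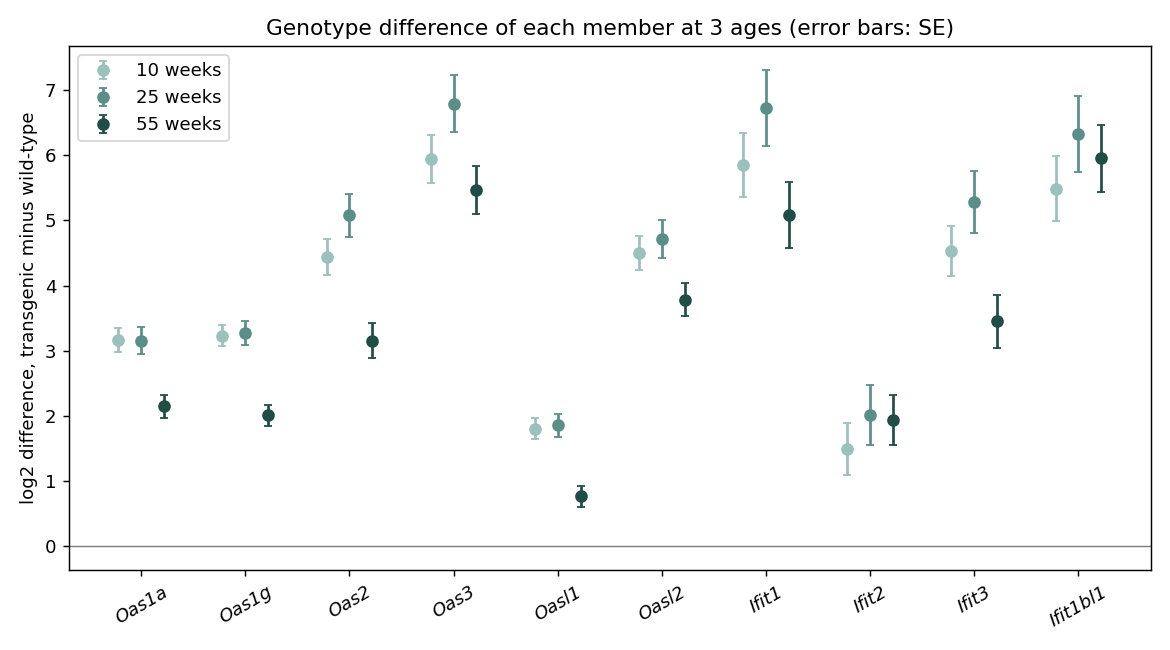
Log2 difference between transgenic and wild-type mice for each of the 10 genes at 10, 25 and 55 weeks, from the edgeR fit, with bars of 1 SE. Oas3 and Ifit1 are the 2 highest at 10 and 25 weeks (5.95 and 5.85, then 6.79 and 6.72), and Oasl1 at 55 weeks is the lowest value (0.77).

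The order of the genes per kilobase changed with genotype and age. In transgenic mice of 10 weeks it ran Oasl1 (190.0 CPM per kilobase), Oas2 (175), Oas1a (125), Ifit1bl1 (121), Oasl2 (98.8), Ifit1 (78.8), Oas1g (62.0), Oas3 (45.9), Ifit3 (7.81) and Ifit2 (0.418). At 55 weeks Ifit1bl1 (119) and Oasl1 (118) were level at the top, Oas2 was at 87.4, and Ifit1 had moved down to 23.5, next to Oas3 at 26.0. These orders describe mean levels per length, and neighbours such as Oas1a and Ifit1bl1 at 10 weeks lie within the spread between mice. They also depend on the length used, all annotated exons: 6374 bases for Oasl2 and 7069 for Oas3. The longest transcripts of these genes have 3123 and 4720 bases, which would give higher values per kilobase. The places at the top are therefore not firm. The sequence that Oas1a and Oas1g have in common also bears on their places.

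Between 10 and 55 weeks most of the 10 genes fell in transgenic mice. Of the 10, 8 were lower at 55 weeks and 0 were higher by edgeR's quasi-likelihood test, adjusted over all genes. In the same comparison 51.7% of all genes were called, and 24.5% of all genes were called lower. For these 8 each library of 55 weeks lay below each library of 10 weeks, a pattern seen for 18.9% of all genes. The median log2 difference of the 10 genes was -0.91, beside 0.02 for all genes. It was -0.83 against the first library group and -0.93 against the second, with 8 genes lower in each. Transgenic libraries of each age entered the choice of the genes, so this comparison is not wholly separate from it.

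The IFIT genes are given first, then the synthetases and OAS-like genes. The transgenic libraries compared also entered the choice of the genes, so the adjusted p-values below are not wholly separate from that choice. Ifit1 fell by 1.75 on the log2 scale (SE 0.39, edgeR adjusted p 0.000497), and Ifit3 fell by 1.24 (SE 0.29, adjusted p 0.000718). Oas1g (log2 -1.09, SE 0.15, edgeR adjusted p 3.21e-07), Oas1a (-1.08, SE 0.17, adjusted p 3.25e-06) and Oas2 (-1.002, adjusted p 0.00117) were lower too. The log2 differences of Oas3 (-0.82), Oasl2 (-0.70) and Oasl1 (-0.69) had edgeR adjusted p of 0.0196, 0.0102 and 0.000377. Ifit1bl1 (-0.02, SE 0.40, adjusted p 0.976) and Ifit2 (0.56, SE 0.34, adjusted p 0.175) did not pass the edgeR test. The Ifit2 estimate was positive, and the Ifit1bl1 estimate turned to 0.40 with scaling by library size.

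Scaling by library size alone, without TMM factors, changed these counts. It moved the median of all genes by 0.42 on the log2 scale and left 5 genes lower and 1 higher (Ifit2, log2 0.99), with the calls of Oas3, Oasl1 and Oasl2 lost and a median of -0.49 for the 10 and 0.44 for all genes. The share of calls in the higher direction went from 52.59% to 83.08% with that scaling.

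**Figure D4:**
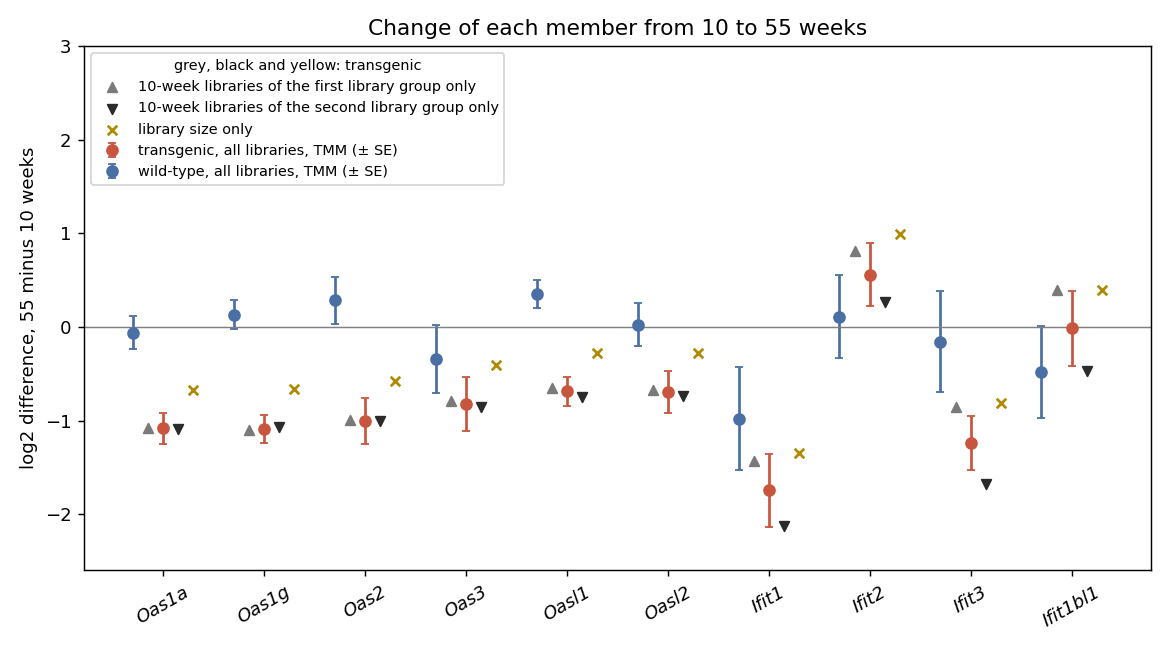
Log2 difference between 55 and 10 weeks in transgenic (red) and wild-type mice (blue) for each of the 10 genes, with bars of 1 SE, and for transgenic mice also against the 10-week libraries of each library group (triangles) and with scaling by library size (crosses). In transgenic mice 8 genes lie between -1.75 and -0.69, Ifit1bl1 is at -0.02 and Ifit2 at 0.56, and in wild-type mice none passed the test.

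From 10 to 25 weeks none of the 10 genes passed the test in transgenic mice (edgeR 0, beside 2.81% of all genes, 0 at an unadjusted p under 0.05, beside 22.2%, and DESeq2 0). From 25 to 55 weeks 7 were lower and 0 higher, where 47.4% of all genes were called and 22.8% were lower. The log2 differences of the 7 were -0.80 for Oas1a, -0.88 for Oas1g, -1.03 for Oas2, -0.61 for Oasl1, -0.75 for Oasl2, -1.85 for Ifit1 and -1.41 for Ifit3. Oas3 was at -0.72 with an edgeR adjusted p of 0.0529, which ranged from 0.00122 to 0.289 over the other settings. With scaling by library size 5 were lower, the calls of Oasl1 (-0.29) and Oasl2 (-0.42) were lost, and the median of the 10 was -0.45. With relatives summed, the calls in place of Ifit1 (-0.78) and Ifit3 (-0.73) were lost. The Oasl1 libraries of the 2 ages overlapped. This comparison lies across library groups, and age and library group cannot be told apart in it. Its transgenic libraries also entered the choice of the genes.

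The difference between genotypes itself was smaller at 55 weeks for part of the family. Each change below is the difference between 2 genotype differences that chose the genes. The calls are therefore a description, with no p-value for any gene. Tested as a change of the genotype difference from 10 to 55 weeks, 4 of the 10 genes were lower and 0 higher by edgeR (36.4% of all genes called, 18.0% lower). These were Oas2 (log2 -1.28, SE 0.35), Oas1g (-1.22), Oasl1 (-1.04) and Oas1a (-1.02). Oas3 (-0.48), Oasl2 (-0.72), Ifit1 (-0.77) and Ifit3 (-1.08) had the same sign but were not called, and Ifit2 (0.45) and Ifit1bl1 (0.46) had the other sign. Wild-type replicate 1 of 10 weeks carried weight here: without it 7 genes were called, adding Oas3 (-1.10), Oasl2 (-1.18) and Ifit1 (-1.69), and Ifit1bl1 turned to -0.38. Against the 10-week mice of the first library group 4 were called and against those of the second 6, with medians of -0.52 and -1.45. From 25 to 55 weeks 5 were called lower (28.9% of all genes called, 14.6% lower), namely Oas2 (-1.92), Oas1g (-1.26), Oasl1 (-1.09), Oas1a (-1.01) and Oasl2 (-0.93). The call of Oasl2 there was lost when any of 10 libraries was left out. From 10 to 25 weeks edgeR called 0 of the 10, beside 0.00632% of all genes (0 at an unadjusted p under 0.05, beside 11.4%, and DESeq2 0). These contrasts share their libraries with one another and with the contrasts that chose the genes.

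Neighbouring relatives did not keep a fixed ratio. The ratio of Ifit1bl1 to Ifit1 counts was 1.09 to 1.46 in transgenic mice of 10 weeks, 0.736 to 1.84 at 25 weeks, and 3.62, 3.02, 2.73, 7.93 and 7.72 at 55 weeks, so the oldest transgenic mice lay above the younger ones. In wild-type mice it was 1.26 to 2.93, 1.39 to 6.40 and 2.25 to 2.65, on far fewer reads. The ratio of Ifit3b, a near copy of Ifit3, to Ifit3 was likewise 1.19 to 1.40, 1.22 to 1.77 and 2.51 to 3.36 in transgenic mice of 10, 25 and 55 weeks. The ratio of Oas1a to Oas1g stayed between 1.30 and 1.99 over all 28 libraries. These ratios were looked at after the values were seen and are a description.

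**Figure D5:**
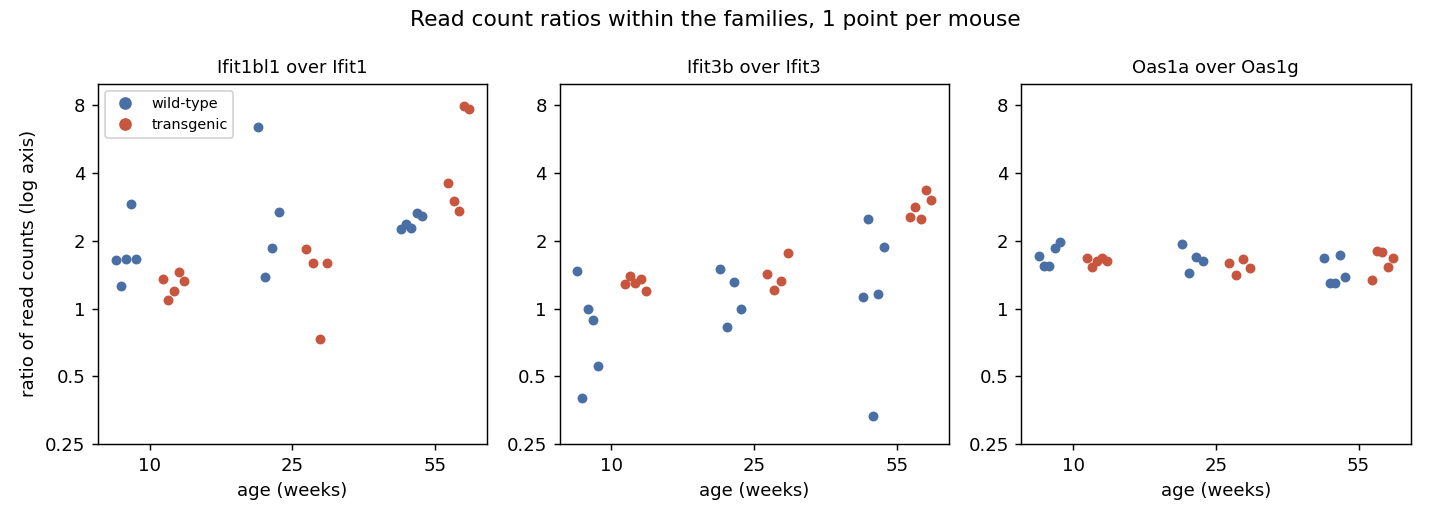
Ratio of counts between relatives in each library, by genotype and age, on a log axis. The transgenic mice of 55 weeks lie above the younger transgenic mice for Ifit1bl1 over Ifit1 (2.73 to 7.93) and for Ifit3b over Ifit3 (2.51 to 3.36), and Oas1a over Oas1g stays between 1.30 and 1.99.

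Summing relatives changed some of these calls. Ifit1 and Ifit1bl1 share no windows with each other, so their sum adds Ifit1bl1, which was at -0.02, to Ifit1. With Ifit1, Ifit1bl1 and Ifit1bl2 summed, the fall from 10 to 55 weeks in transgenic mice was -0.55 with an edgeR adjusted p of 0.256. This sum is itself among the 9 settings of Ifit1 and sets the upper end of their adjusted p (0.000123 to 0.256). The call of Ifit1 was kept in 8 of the 9. With Ifit3 and Ifit3b summed the fall was -0.50 with an edgeR adjusted p of 0.169. That sum likewise sets the upper end for Ifit3 (0.000132 to 0.169), whose call was kept in 8 of 9 settings. The Oas1 genes summed fell by 1.08 and passed the test.

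Of 8 further Oas and Ifit family genes, 4 had enough counts to be tested, and all 4 were called higher in transgenic mice at each age. Of all genes 17.9%, 21% and 31.7% were called higher at 10, 25 and 55 weeks. The list was chosen with results of the data known, so the count is a description. Oas1b, annotated as a polymorphic pseudogene, was at 2.97 to 7.13 CPM in wild-type libraries and at 37.1, 41.5, 32.8, 34.3 and 39.6 CPM in transgenic mice of 10 weeks. It was down to 26.5, 17.5, 14.4, 15.7 and 12.9 CPM at 55 weeks, with log2 differences between genotypes of 2.82, 2.67 and 1.64 at the 3 ages. Oas1c, a member of the same cluster, had log2 differences between genotypes of 1.88, 1.498 and 0.50. Ifit1bl2, whose promoter overlaps that of Ifit1 on the other strand, had log2 differences of 5.59, 5.37 and 5.47, and it fell by 1.66 from 10 to 55 weeks in transgenic mice. Oas1b (-1.09) and Oas1c (-1.11) fell as well, whereas Ifit3b was at -0.11 (edgeR adjusted p 0.789). Of all genes 24.5% were called lower in that comparison. In transgenic mice Ifit3b held 19.8, 12.4, 9.49, 20.7 and 25.5 CPM at 10 weeks and 16.2, 16.6, 16.2, 16.8 and 15.7 CPM at 55 weeks. Its promoter stretch over 94 bases, chr19:34607744-34607837, was identical to that printed for Ifit3. Oas1d had 6 counts and Oas1e 3 over all 28 libraries, and Oas1f and Oas1h had 0.

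Pde12 and Abce1 differed little between genotypes. Pde12, an enzyme that degrades oligoadenylates, was higher in transgenic mice by log2 differences of 0.32, 0.56 and 0.63 at 10, 25 and 55 weeks (edgeR adjusted p 0.0453, 0.00255 and 7.81e-05). Abce1, a protein that acts in ribosome recycling, was at -0.12 (edgeR adjusted p 0.497), 0.37 (adjusted p 0.0391) and 0.45 (adjusted p 0.00282). These differences were far smaller than those of the synthetases.

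Interferon transcripts themselves were at or near 0 in most libraries. Of 21 interferon genes looked up, 15 had 0 counts in all 28 libraries, among them Ifnb1, which encodes interferon beta. A count of 0 allows up to 3 counts, which is 0.313 CPM in the shallowest and 0.0784 CPM in the deepest library. Ifne, an interferon made constitutively by some epithelia, was the single one that passed the filter. It was at log2 differences of 0.35 (edgeR adjusted p 0.378), -0.01 and 1.16 (adjusted p 3.15e-04) at 10, 25 and 55 weeks. Ifng, the T and natural killer cell interferon, had 39 counts, 38 of them in transgenic mice of 55 weeks. Ifna7 had 2 counts, Ifnz 6, Ifnk 1 and Ifnl3 1. Levels of interferon protein were not measured.

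The receptors and kinases that carry the interferon signal came next. Of 9 tested, 5, 6 and 4 were higher in transgenic mice at 10, 25 and 55 weeks and 0 were lower. Of all genes 17.9%, 21% and 31.7% were called higher at these ages. Ifnlr1, a chain of the type III receptor, was at 0.60, 0.60 and -0.09 on the log2 scale, Ifngr1, a chain of the type II receptor, at 0.62, 0.63 and 0.06, and the kinase Jak1 at 0.38, 0.53 and 0.31. The highest of the list at 55 weeks was Ifnar2, a chain of the type I receptor, at 1.08. From 10 to 55 weeks in transgenic mice 3 of the list rose, with Ifnar2 at 1.06, and 3 fell. In that comparison 51.7% of all genes were called and 24.5% were called lower. The transcription factors differed more: of 9 tested, 7, 6 and 7 were higher and 0, 1 and 1 lower. The log2 differences between genotypes were 2.88, 2.90 and 1.87 for Stat2 and 1.93, 2.02 and 1.22 for Irf9. Irf7, the factor that drives interferon transcription and is itself induced, had 4.00, 4.39 and 3.33.

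From 10 to 55 weeks in transgenic mice 2 of the 9 factors rose, Irf5 (1.64) and Irf8 (1.04), and 4 fell, with a median of -0.10. Of all genes 51.7% were called there and 24.5% were called lower. The log2 differences were -0.76 for Stat2, -0.47 for Irf9 and -0.71 for Irf7. These 3 passed the edgeR test with TMM scaling, and scaling by library size, which moved the median of all genes by 0.42, was not run for this list. Of the 6 negative regulators tested, 3 were higher at each age and 0, 0 and 2 lower, the 2 being Ptpn6 (-0.64) and Pias1 (-0.37). Usp18, which removes ISG15 and restrains type I receptor signalling, had log2 differences of 4.93, 5.40 and 3.93, Socs1, an inhibitor of the kinases, 2.84, 2.65 and 3.21, and Socs3 0.67, 0.37 and 0.46. Among 18 tested nucleic acid sensors and adaptors, 13 were higher at each age and 0, 1 and 2 were lower. The sensor of short double-stranded RNA ends Ddx58, also called RIG-I, was at 4.42, 4.60 and 3.10, its relative Dhx58 at 4.40, 4.32 and 3.20, and the Z-nucleic acid sensor Zbp1 at 6.60, 6.49 and 5.51. These lists were chosen with results of the data known, so their counts are a description beside the 17.9%, 21% and 31.7% of all genes called higher.

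Of the other interferon-induced effectors, all 19 listed were higher in transgenic mice at each age, with median log2 differences of 4.15, 4.96 and 3.32, and 14 fell from 10 to 55 weeks in transgenic mice while 0 rose (median -0.89). The 3 with the lowest adjusted p at 10 weeks were Trim30a (7.03, 6.81 and 5.48), Phf11d (5.07, 5.56 and 4.71) and Ifi44 (7.35, 8.18 and 6.60). The guanylate-binding proteins, GTPases induced by interferon gamma in particular, showed other values with age. Of 10 tested, 7, 7 and 10 were higher in transgenic mice, with medians of 3.36, 3.02 and 3.78. Beside the genotype counts of both lists, 17.9%, 21% and 31.7% of all genes were called higher at 10, 25 and 55 weeks. From 10 to 55 weeks in transgenic mice 5 of them rose and 1 fell, with a median of 0.89, and the difference from the Oas and Ifit genes was not tested. Gbp3 (5.03, 5.40 and 4.37), Gbp7 (3.50, 4.01 and 3.29) and Gbp5 (3.25, 3.44 and 3.38) had the lowest adjusted p at 10 weeks. Over 7 pathway lists with 65 tested genes, 12 rose and 35 fell from 10 to 55 weeks in transgenic mice. In that comparison 51.7% of all genes were called and 24.5% were called lower. Of all calls 52.59% were in the higher direction, and 83.08% with scaling by library size, which was not run for these lists. The lists were chosen with results of the data known, so the counts are a description.

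The genes whose 6 group means ran closest to the median of the 10 genes were sensors, regulators and effectors of the same response. Likeness was measured as the root mean square distance of log2 group means, each centred on its own mean, among 11770 other genes. Ddx58 was nearest at 0.140, followed by Dhx58 (0.167), Irf7 (0.182), Herc6, an ISG15 ligase (0.197), the mitochondrial nucleotide kinase Cmpk2 (0.231), the GTPase Mx2 (0.310), Usp18 (0.314) and the GTPase Mx1 (0.320). These 8 are the nearest by construction. Within the family, Oas2 was 0.120 from that median and Oasl1 1.36.

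Immune cells also express these genes, and their markers were measured beside them. The summed level of 4 pan-leukocyte genes was 6.15 to 16.8 CPM in wild-type and 9.14 to 16.2 CPM in transgenic libraries at 10 weeks (two-sided exact permutation test, p = 0.5). At 55 weeks it was 18.2 to 21.9 CPM against 25.9 to 62.7 CPM (exact permutation p = 0.00794, the smallest 5 against 5 mice can give, 0.0238 after adjustment over 39 tests). Summed T and natural killer cell markers were at 0.952 to 2.35 against 1.49 to 2.41 CPM at 10 weeks and at 3.17 to 4.58 against 6.78 to 18.5 CPM at 55 weeks. Summed myeloid markers were apart already at 10 weeks, at 24.2 to 59.0 CPM in wild-type and 70.7 to 79.6 CPM in transgenic libraries. Of the 10 genes 2 were called higher (Mpeg1 and Cd68), beside 34.0% of all genes called and 17.9% called higher. At 25 weeks the sums overlapped, at 32.2 to 83.9 against 64.4 to 133 CPM. At 55 weeks they were at 71.7 to 80.0 against 219 to 388 CPM. There 9 of 10 were called higher, beside 59.3% of all genes called and 31.7% called higher. B and plasma cell markers were at 314 to 436 against 556 to 677 CPM at 55 weeks.

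Plasmacytoid dendritic cells, a rich source of interferon, were looked for through 5 markers. Their sum was 118 to 205 CPM in wild-type and 336 to 516 CPM in transgenic libraries at 10 weeks, of which Ly6d, a gene that squamous epithelium also expresses, made up 147 and 410 CPM on average. The defining markers Siglech (at most 0.417 CPM) and Cox6a2 (at most 0.104 CPM) were near 0 in each library of that age. Endothelial markers summed to 14.3 to 39.1 against 67.1 to 88.9 CPM, driven by Tek (3.68 and 55.5 CPM on average), while Pecam1, Cdh5 and Kdr were not called. Pan-epithelial markers were at 8151 to 11715 CPM in wild-type and 12338 to 16405 CPM in transgenic libraries of 10 weeks, so they were high in each library. Chief cell markers were far apart between genotypes at 55 weeks, at 23358 to 87194 against 303 to 1312 CPM. Pit cell markers overlapped between genotypes at 10 weeks (124261 to 180393 against 139616 to 173330 CPM) and were lower in transgenic mice at 55 weeks (134936 to 187933 against 33925 to 68440 CPM). Mucous neck (2615 to 3968 against 3801 to 4425 CPM), fibroblast (104 to 344 against 236 to 463 CPM) and smooth muscle markers (16.4 to 61.2 against 17.1 to 77.1 CPM) overlapped between genotypes at 10 weeks. The part of these shifts in cell makeup in the Oas and Ifit differences was not tested.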

How the data were processed

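Polyadenylated RNA was sequenced from 28 mice, 1 library each. The authors deposited raw HTSeq read counts for 49492 gene symbols, made with TopHat2 (2.0.14), HTSeq (0.6.1) and mm10 per the submitters' processing notes, which also name DESeq2. For annotation and strand setting, the sources used here name none. The totals of 10982888 to 30891108 counts set the precision, and reads carry no molecular identifiers, so floors cover counting error only.

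Groups follow the labels' genotype and age. Genes were filtered with filterByExpr (15812 left) and scaled with TMM. The edgeR (4.0.16, R 4.3.3) quasi-likelihood test with robust dispersion was fitted to all 28 libraries with a mean per group, for 12 contrasts, and adjusted by Benjamini-Hochberg over all genes. Calls are at an adjusted p under 0.05. The script was tested on simulated data. Marker sums were compared by exact permutation tests. The members, lists and tests were chosen with earlier results of these data known. Named genes are the 10 members, their family, Abce1, Pde12, Stat2, Irf9, Irf7, Usp18, interferon genes with counts, the 3 genes per pathway list with the lowest adjusted p at 10 weeks and the 8 most like genes with a mean of at least 1 CPM. Ifnar2, Irf5, Irf8, Ptpn6, Pias1, the ratios between relatives and the within-group library patterns were singled out after the values were seen.

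Settings tried beside these were scaling by DESeq2 size factors or by library size, an unfiltered table, only the groups compared, a replicate block, DESeq2 (1.42.0), 10-week libraries of either library group, summed relatives and each library left out. Same-numbered libraries did not deviate together in most cases (14 genotype pairs, correlations -0.42 to 0.23), and the mice were treated as unpaired. Such correlations cannot show whether same-numbered mice were related or handled together. Lists of pit, mucous neck, fibroblast and smooth muscle markers were measured too. A few genes named by this rule are not reported here.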

Additional observations from a re-analysis of the deposited data

Results flagged for a closer look

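In each group the gap of the highest or lowest library to its nearest neighbour was compared with the range of the group, over 60 combinations of gene and group. For independent, normally distributed values such a check marks about 1 in 20 groups. The 10 genes were measured in the same mice, so the 60 checks are not independent and their number is not compared with that rate. Here the check marked 10, of which 6 were wild-type replicate 1 of 10 weeks. That library stood above its group for Oas1a (43.6 CPM), Oas1g (25.5 CPM), Oas3 (12.2 CPM), Oasl2 (57.2 CPM), Ifit1 (9.78 CPM) and Ifit1bl1 (16.1 CPM). Wild-type replicate 3 of 25 weeks, tagged as a replacement library, stood above its group for Oas1g (15.9 CPM) and Oasl2 (37.5 CPM). Wild-type replicate 1 of 55 weeks stood above its group for Oasl2 (35.9 CPM) and Ifit1 (3.15 CPM). No transgenic library was marked among the 10 genes.

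The genotype difference changed between ages, by edgeR's test of the change itself, for 4 genes from 10 to 55 weeks: Oas1a (log2 -1.02), Oas1g (-1.22), Oas2 (-1.28) and Oasl1 (-1.04). Of all genes 36.4% were called there and 18.0% were called lower. From 25 to 55 weeks the genotype difference changed for Oas1a (-1.01), Oas1g (-1.26), Oas2 (-1.92), Oasl1 (-1.09) and Oasl2 (-0.93), beside 28.9% of all genes called and 14.6% called lower. The call of Oasl2 was lost when any of 10 libraries was left out. The genotype differences themselves chose the genes, so these calls are a description.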

How the results depend on the processing

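The genes were chosen by their genotype differences, so the values of that contrast under other settings are a description. The median genotype difference at 10 weeks was 4.07 within the first library group and 5.07 within the second, and that at 55 weeks was 3.70 with scaling by library size. Within each library group 9 of the 10 genes were called at 10 weeks, with the call of Ifit2 lost. That scaling moved the median of all genes by 0.16 at 25 weeks and 0.40 at 55 weeks between genotypes and by 0.42 from 10 to 55 weeks in transgenic mice, where the median of the 10 genes became -0.49. The higher share of calls went from 52.99% to 74.51% and from 53.4% to 78.91% between genotypes at 25 and 55 weeks, and from 50.54% to 79.63% and 49.34% to 73.35% for its change to 55 from 10 and from 25 weeks. From 25 to 55 weeks in transgenic mice it went from 51.9% to 80.64%, and from 10 to 55 weeks in wild-type mice from 50.67% to 69.86%. In wild-type mice 1 gene was called from 10 to 55 weeks with the second library group, and 1 from 25 to 55 weeks with library size and 1 with DESeq2. Leaving out single libraries gave 0 to 2 calls in wild-type mice from 10 to 55 weeks and 4 to 7 for the change of the genotype difference from 10 to 55 weeks. For that change DESeq2 called 5 genes, and from 25 to 55 weeks it called 7. The signs that turned were of values that had not passed the test, and the cause was not tested. Ifit1bl1 in transgenic mice from 10 to 55 weeks became 0.40 with library size, 0.40 with the first library group and 0.031 with the replicate block, and ran from -0.14 to 0.16 with single libraries left out. From 25 to 55 weeks it became 0.0035 with library size. The change of the genotype difference from 10 to 55 weeks became 0.032 for Oas3 with the first library group, 0.10 for Ifit1 with relatives summed, and -0.18 for Ifit2 and -0.70 for Ifit1bl1 with the second, and that of Ifit1bl1 ran from -0.38 to 0.74 with single libraries left out. From 25 to 55 weeks it became 0.20 for Ifit2 with library size and 0.11 with the replicate block, and ran from -0.58 to 0.30 with single libraries left out. With the replicate number as a block, 8 genes were called in transgenic mice from 10 to 55 weeks, and 5 and 6 for the change of the genotype difference to 55 from 10 and from 25 weeks. Whether the numbers pair the mice cannot be told from the correlations: 3 of 14 genotype pairs, all of 10 weeks (0.16, 0.23 and 0.11), and 7 of 26 age pairs were over 0.1. Counting wild-type replicates 2 and 3 of 10 weeks as 1 library, chosen after seeing the data, changed no call. Depth limits Ifit2 and Ifit3 in wild-type mice, both under 1 CPM.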
